A study of Mus musculus with 6 samples.

Results

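Ras GTPase-activating proteins (RasGAPs) were examined in mouse gastrocnemius, the large calf muscle, as the deposited RNA levels of 8 genes out of 23997 gene symbols listed per library. The genes were *Rasa1*, *Rasa2*, *Rasa3*, *Rasa4*, *Rasal2*, *Rasal3*, *Nf1* and *Dab2ip*, each matched by its symbol, and all 8 were listed in every library. They were not an arbitrary set. *Rasa3* was selected on the genotype contrast described here, because its level was known to be higher in *HrasG12V* muscle, and the others were taken for comparison with it. Their differences between genotypes are therefore given as a description, and where genes past a limit of the fit are counted, the count is no test of them.

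The study profiled muscle RNA (RNAseq) of a mouse model of Costello syndrome, in which *Hras* carries the activating valine substitution at codon 12, to ask how the mutation alters transcription. The *HrasG12V* group held mice 2276, 2278 and 2279, heterozygous for the mutant allele and carrying the Caggs-Cre transgene (Caggs-Cre+/HrasG12V/+). Littermates 2277, 2280 and 2281 made up the wild-type (WT) group, labelled *Hras*+/+ by genotype but Caggs-Cre-/HrasflG12V/+ by strain, so by that label they carried the floxed allele without the Cre that switches it on. All 6 mice were 21 days old and untreated, on a mixed background of 3 strains that include SWR/J and C57BL/6J, with 1 library per mouse and n = 3 mice per genotype. The CAG promoter drives Cre in nearly all tissues, so the mutant allele is not limited to muscle fibres, and which cells carried it was not measured here. Presence of Cre and presence of the mutation cannot be told apart in this design. Sex, litter and batch of the mice are not in the labels.

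RasGAPs switch Ras off. Ras proteins signal while bound to GTP and stop when the GTP is hydrolysed, which they do slowly on their own. A RasGAP inserts an arginine, the arginine finger, into the active site of Ras and speeds that step many-fold. The valine at codon 12 blocks the arginine finger, so mutant *Hras* is insensitive to these proteins, whereas wild-type *Hras*, *Nras* and the related *Rras* proteins are not. The genes fall into families by the domains around the GAP domain. *Rasa1* encodes p120 RasGAP, whose SH2 domains dock on activated receptor tyrosine kinases and on Dok adaptors. *Nf1* encodes neurofibromin, which Spred proteins bring to the membrane and which is lost in neurofibromatosis. *Rasa2*, *Rasa3* and *Rasa4* belong, with *Rasal1*, to the GAP1 family, whose proteins carry C2 domains and a PH domain. *Dab2ip*, *Rasal2* and *Rasal3* belong to a further family with a PH and a C2 domain before the GAP domain, of which *Rasal3* is found mainly in blood cells. *Rasa3* acts on Rap1 as well as on Ras and is best known for restraining Rap1 in platelets and endothelium.

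The levels are FPKM, mapped fragments scaled to transcript length and to library size, as Cuffnorm had made comparable between libraries. FPKM are per length, the scale on which genes are set side by side here, but in mouse 2276 they still moved with transcript length, so orders, shares and ratios between genes of unlike length also hold that trend. Sums of FPKM ran from 413020 (mouse 2279) to 814013 (mouse 2276) per library and are not depths. No read counts were used here, so the precision of each value is known only from the spread between mice. As a check of the tissue, the muscle myosin light chain *Mylpf* was at 10760 to 36114 FPKM, but the muscle genes *Acta1* and *Myh4* were listed at 0 in all 6 libraries, *Ckm* in 5 and *Tnnt3* in mouse 2276. These are among the most abundant genes of muscle, so a 0 is given here only as listed at 0. *Hras* itself, which sums both alleles, was at 36.8, 36.0 and 51.8 FPKM in the WT mice (2277, 2280 and 2281) and at 58.8, 28.9 and 16.0 FPKM in *HrasG12V* mice 2276, 2278 and 2279, so the genotypes overlapped and the level does not check the labels. The reads were not used here. In them the study reported finding transcripts of both the WT and the mutant *Hras* allele in *HrasG12V* muscle, in about equal amounts. The muscles were analysed whole, and in such samples fewer cells of a type and less RNA per cell cannot be told apart.

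The promoters of the 2 members with the highest fold changes, *Rasa3* and *Rasal3*, are shown, as the members that the values turn on most. In GENCODE vM21 (GRCm38) *Rasa3* spans chr8:13566948-13677603 and *Rasal3* chr17:32390659-32403583, both on the minus strand. The 250 bases before the RefSeq transcription start (GRCm38.p6) are written from 5′ to 3′ on the gene's strand, at chr8:13677588-13677837 for *Rasa3* and at chr17:32403583-32403832 for the first of the 2 listed *Rasal3* starts, which are neighbouring bases. Capitals mark matches to 4 short motifs searched on both strands. These were the CCAAT box (written CCAAT), the GC box bound by Sp family factors (written GGGCGG, which reads CCGCCC on the opposite strand), the E-box with the letters CACGTG, and the TATA box with the letters TATAAA.
Rasa3: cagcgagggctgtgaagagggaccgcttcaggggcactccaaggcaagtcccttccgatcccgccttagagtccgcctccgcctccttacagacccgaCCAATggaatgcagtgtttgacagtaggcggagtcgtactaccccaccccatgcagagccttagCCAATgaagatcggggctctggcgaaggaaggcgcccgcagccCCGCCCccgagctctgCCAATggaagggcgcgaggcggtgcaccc
Rasal3: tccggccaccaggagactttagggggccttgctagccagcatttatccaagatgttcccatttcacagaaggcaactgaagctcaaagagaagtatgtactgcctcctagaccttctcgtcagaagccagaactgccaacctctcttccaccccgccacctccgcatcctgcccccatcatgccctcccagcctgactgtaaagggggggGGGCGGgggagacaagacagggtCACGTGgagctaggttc
The *Rasa3* window held 18 CpG and the *Rasal3* window 6, against a median of 6 and quartiles of 2 and 16 over 32851 RefSeq windows of this length. *Rasa3* had 3 matches to CCAAT, all in the forward direction, and *Rasal3* had no match. Of all windows 33.8% held a match on either strand and 2.79% held 3 or more. The *Rasal3* window had 1 match to CACGTG, found in 6.02% of all windows, and the *Rasa3* window had no match. Both had 1 match to GGGCGG (in 32.7% of windows) and no match to TATAAA (in 12.4%). All 8 genes were found in the RefSeq table, with 12 windows, 4 of them for *Dab2ip*. Among the other members, the windows of *Rasa1*, *Rasa2*, *Rasal2* and *Nf1* held 24, 24, 23 and 21 CpG, that of *Rasa4* held 13, and those of *Dab2ip* 4 to 21. *Rasa4* had 2 matches to CCAAT, *Rasa2* and 3 of the *Dab2ip* windows had 1 each, while *Rasa1*, *Rasal2* and *Nf1* had no match. A match is only a run of letters, and no binding was measured.

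*Rasa3* was the RasGAP whose level was higher in every *HrasG12V* mouse than in every WT mouse. It was at 4.76, 5.77 and 4.87 FPKM in the WT mice (2277, 2280 and 2281) and at 8.57, 12.5 and 14.0 FPKM in *HrasG12V* mice 2276, 2278 and 2279. The lowest *HrasG12V* value, that of mouse 2276, was still above the highest WT value, and mice 2278 and 2279 stood higher again. The means were 5.13 ± 0.555 FPKM in WT and 11.7 ± 2.83 FPKM in *HrasG12V* muscle (SD, n = 3 each), a difference of 1.15 (standard error 0.22) on the log2(FPKM + 0.1) scale used for every fold change here, or 2.22-fold. On that scale the change of a gene with few fragments is understated. The difference was 1.09, 1.0 and 1.36 without *HrasG12V* mouse 2278, 2279 and 2276, respectively, and 1.10 to 1.23 without 1 of the WT mice. Mouse 2276 alone, set against the 3 WT mice, gave 0.73.

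*Rasa2* and *Rasa4*, of the same GAP1 family, did not separate the genotypes. *Rasa2*, which binds membrane phospholipids through its PH domain, was at 2.48, 2.35 and 2.45 FPKM in the WT mice (2277, 2280 and 2281) and at 1.48, 2.99 and 3.73 FPKM in *HrasG12V* mice 2276, 2278 and 2279. The WT mice were nearly alike, mouse 2276 lay below them and mice 2278 and 2279 above. The log2 fold change was 0.07 (SE 0.33). It turned to -0.19 without mouse 2279 and to -0.04 without mouse 2278, and was 0.44 without mouse 2276. *Rasa4*, also known as CAPRI and drawn to the membrane by calcium, was at 14.6, 12.3 and 12.9 FPKM in the same WT mice and at 21.8, 11.3 and 14.2 FPKM in the *HrasG12V* mice. Here mouse 2276 was the highest of all 6 and mouse 2278 the lowest, so the genotypes overlapped. The log2 fold change was 0.20 (SE 0.26), and it was -0.06 without mouse 2276.

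Of the family of *Dab2ip*, *Rasal2* and *Rasal3*, 1 member was lower, 1 overlapped and 1 was raised in only some *HrasG12V* mice. *Dab2ip*, a scaffold that also acts in TNF receptor signalling, was the most abundant RasGAP, at 25.0, 23.3 and 26.4 FPKM in the WT mice (2277, 2280 and 2281). In *HrasG12V* mice 2276, 2278 and 2279 it was at 20.7, 18.1 and 18.4 FPKM. Every *HrasG12V* mouse was below every WT mouse, with means of 19.1 ± 1.41 against 24.9 ± 1.55 FPKM (SD, n = 3 each), 1.30-fold lower (log2 fold change -0.38, SE 0.15). It lay between -0.44 and -0.34 when 1 mouse was left out and was -0.20 with the length trend of each library removed. *Rasal2* was at 3.71, 3.79 and 3.12 FPKM in the WT mice and at 1.40, 2.86 and 3.36 FPKM in the *HrasG12V* mice, the lowest in mouse 2276. The ranges overlapped, and the log2 fold change of -0.55 (SE 0.33) was -0.18 without mouse 2276.

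*Rasal3* was close to undetected in 4 of the 6 libraries. It was at 0.0959, 0.0646 and 0.0808 FPKM in the WT mice (2277, 2280 and 2281), at 0.0899 FPKM in *HrasG12V* mouse 2276, and at 4.42 and 5.62 FPKM in *HrasG12V* mice 2278 and 2279. Mouse 2276 lay among the WT mice, so the genotypes overlapped, while mice 2278 and 2279 were far above all the others. The log2 fold change of 3.24 (SE 1.30) described neither kind of *HrasG12V* mouse. It was 2.53 without mouse 2278, 2.36 without mouse 2279, 4.82 without mouse 2276 and 0.08 without both mice 2278 and 2279. *Rasal3* met the limit of a mean of at least 0.5 FPKM for the fit through mice 2278 and 2279 alone.

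*Rasa1* and *Nf1*, the most studied RasGAPs, had nearly equal means in both genotypes. *Rasa1* was at 6.24, 7.03 and 6.97 FPKM in the WT mice (2277, 2280 and 2281) and at 4.13, 7.41 and 7.72 FPKM in *HrasG12V* mice 2276, 2278 and 2279. Mouse 2276 was the lowest and the other *HrasG12V* mice the highest of the 6. The log2 fold change was -0.12 (SE 0.26), and 0.16 without mouse 2276. *Nf1* was at 4.79, 4.16 and 4.47 FPKM in WT and at 3.50, 5.16 and 4.80 FPKM in *HrasG12V* mice, with mouse 2276 again lowest. Its log2 fold change was -0.01 (SE 0.19), from -0.12 to 0.15 when 1 mouse was left out.

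**Figure D1:**
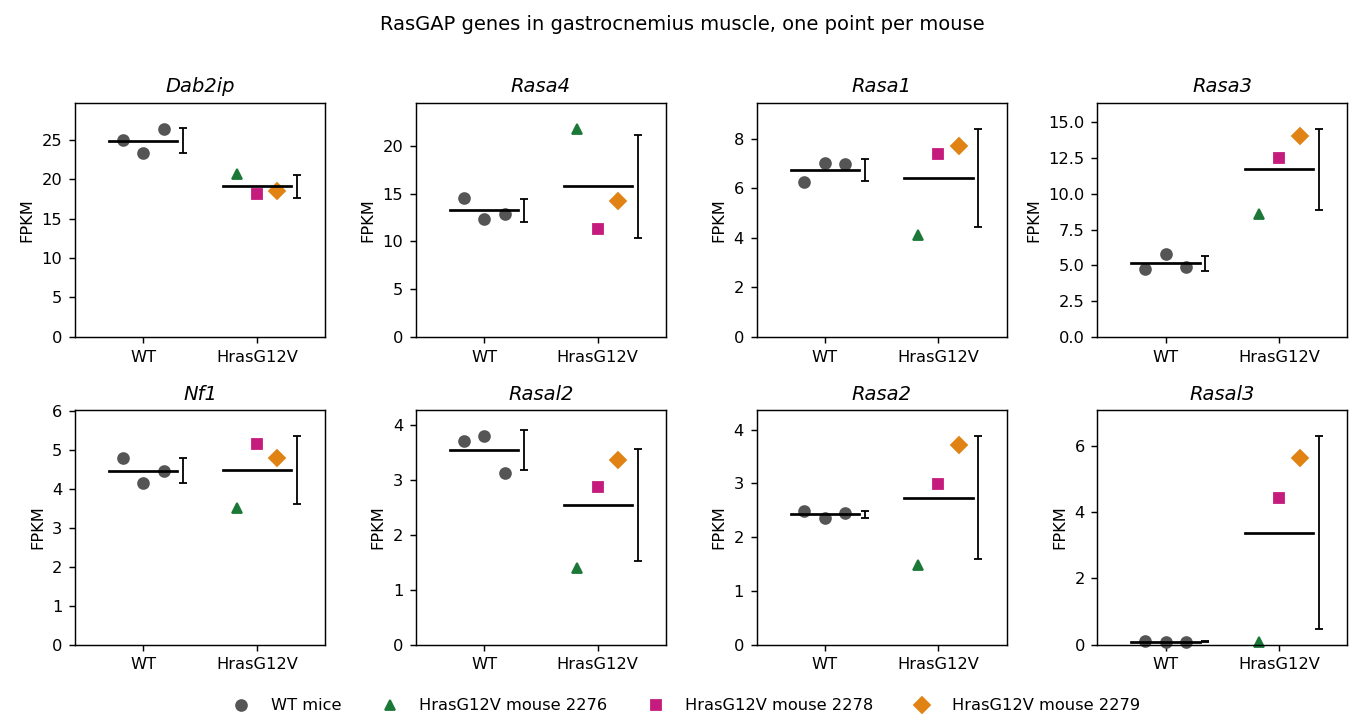
FPKM (vertical axis, from 0 in each panel) of the 8 RasGAP genes in each mouse, ordered by WT mean, with horizontal lines for genotype means and bars for the SD (n = 3). The *Rasa3* values of the *HrasG12V* mice (8.57 to 14.0 FPKM) lie above all WT values, those of *Dab2ip* below, and *Rasal3* is raised only in mice 2278 and 2279.

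Set against all genes, the counts for these 8 were as follows. Of the 13359 genes tested in the fit, 692 (5.18%) were higher with an unadjusted limma p below 0.05, and among the RasGAPs these were 2, *Rasa3* and *Rasal3*. Lower at that limit were 666 genes (4.99%) and 1 RasGAP, *Dab2ip*. After Benjamini-Hochberg adjustment over all genes 8 (0.0599%) had a limma adjusted p below 0.05, and 0 RasGAPs did. Every *HrasG12V* mouse was above every WT mouse in 1084 genes (8.11%) and for 1 RasGAP, and below in 1390 genes (10.4%) and for 1 RasGAP. The other 6 overlapped. Because this contrast led to the choice of *Rasa3*, nothing is read from these counts. They also hung on single mice. The 1358 genes past the unadjusted limit were 3979 without mouse 2276 and 635, 709 and 606 without WT mouse 2277, 2280 and 2281, and the 8 past the adjusted limit were 1291 without mouse 2276 and 14 without WT mouse 2281. For the RasGAPs the numbers past the unadjusted limit were 3 higher and 1 lower without mouse 2276, and 1 and 0 without any other single mouse. The median log2 fold change was 0.03 for the 8 genes and -0.03 for all genes tested. For the 7 genes other than *Rasa3* it was -0.01, and without *Rasal3* it was -0.07, with a range of -0.55 to 0.20.

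The order of the RasGAPs by level differed between the genotypes. In WT muscle *Dab2ip* was highest, followed by *Rasa4*, *Rasa1*, *Rasa3*, *Nf1*, *Rasal2*, *Rasa2* and *Rasal3*, and of these neighbours only *Rasa3* and *Nf1* had ranges that overlapped. In *HrasG12V* muscle the order was *Dab2ip*, *Rasa4*, *Rasa3*, *Rasa1*, *Nf1*, *Rasal3*, *Rasa2* and *Rasal2*, and only *Rasa3* and *Rasa1* had ranges that did not overlap. By level, *Rasa3* had rank 4 or 5 of the 8 in the WT mice and rank 2 or 3 in the *HrasG12V* mice. Its share of the summed FPKM of the 8 genes was 7.71%, 9.82% and 7.96% in WT mice 2277, 2280 and 2281 and 13.9%, 19.3% and 19.5% in *HrasG12V* mice 2276, 2278 and 2279. All *HrasG12V* shares were above all WT shares, with means of 8.50 ± 1.15% and 17.6 ± 3.19% (SD, n = 3 each). The share of *Dab2ip* was 41.1 ± 1.80% in WT and 29.0 ± 4.07% in *HrasG12V* muscle. The sum itself was 58.7 to 61.7 FPKM in WT and 61.6 to 71.9 FPKM in *HrasG12V* mice, ranges that just overlapped.

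Ratios within a library do not depend on how the libraries were scaled to each other, though they do hold any trend over length. The level of *Rasa3* relative to *Rasa1*, both of similar transcript length, was 0.698 to 0.820 in WT and 1.69 to 2.08 in *HrasG12V* mice. On the log2(FPKM + 0.1) scale the *Rasa3* to *Rasa1* ratio differed by 1.27 (SE 0.11, n = 3 per genotype) between genotypes, with the smallest error of any pair. Relative to *Nf1* the ratio was 0.993 to 1.39 in WT and 2.42 to 2.93 in *HrasG12V* mice. Relative to *Rasa2* it was 1.91 to 2.46 and 3.77 to 5.78, relative to *Rasal2* 1.28 to 1.56 and 4.18 to 6.14, and relative to *Dab2ip* 0.185 to 0.248 and 0.414 to 0.762. In these 5 ratios every *HrasG12V* mouse was above every WT mouse. The exceptions were *Rasa4*, with 0.326 to 0.468 in WT and 0.393 to 1.11 in *HrasG12V* mice, and *Rasal3*, with 49.6 to 89.3 and 2.50 to 95.3. Against the median of the other 7 genes, log2 *Rasa3* was at -0.01, 0.46 and 0.12 in the WT mice and at 1.27, 1.26 and 1.31 in the *HrasG12V* mice. The gene at that median was *Nf1* in 5 of the mice and *Rasal3* in mouse 2279. The difference between genotypes was 1.09 (SE 0.14).

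The 3 *HrasG12V* libraries were not alike, and mouse 2276 stood apart by transcript length. Over all genes tested, its log2 level minus the WT mean had a median of 0.74 for the 960 genes whose longest transcript is under 1000 bases and fell through the classes to -0.62 for the 693 genes of 8000 bases or more. In mouse 2278 the class medians lay between -0.12 and -0.04, and in mouse 2279 between -0.11 and 0.02. RasGAP transcripts are long, from 3849 bases for *Rasal3* and 3967 for *Rasa4* to 10047 for *Rasal2* and 11917 for *Nf1*. In mouse 2276 *Rasal2* was at -1.28, *Rasa1* at -0.69, *Rasa2* at -0.67, *Nf1* at -0.34 and *Dab2ip* at -0.26 relative to WT, against class medians of -0.62, -0.21, -0.52, -0.62 and -0.52. *Rasa3*, with 4404 bases, was at 0.73 where its class was at -0.21, and *Rasa4* was at 0.72 where its class was at 0.13. In mice 2278 and 2279, where the class medians were near 0, *Rasa3* was at 1.27 and 1.44 and *Rasa1*, of similar length, at 0.13 and 0.19. Removing each library's trend over length gave log2 fold changes of 1.24 for *Rasa3*, 0.26 for *Rasa2*, 0.27 for *Rasa4*, -0.02 for *Rasa1*, 0.23 for *Nf1*, -0.20 for *Dab2ip*, -0.32 for *Rasal2* and 3.30 for *Rasal3*. Whether the length trend moved the RasGAP levels of mouse 2276 was not tested beyond that removal.

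**Figure D2:**
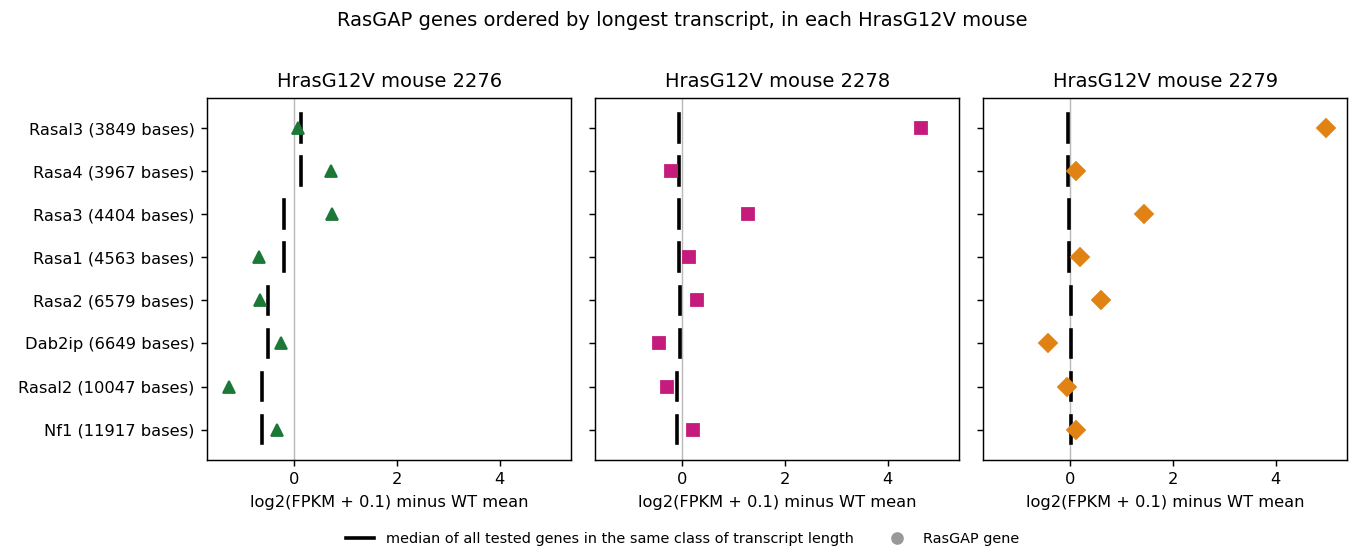
Level of each RasGAP gene (symbols) in each *HrasG12V* mouse as log2(FPKM + 0.1) minus the WT mean (horizontal axis), ordered by the length of the longest transcript, with black bars for the median of all tested genes of that length class. In mouse 2276 the bars run from 0.13 to -0.62, in mice 2278 and 2279 they stay near 0, and *Rasa3* lies to the right of its bar in all 3 mice.

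Markers of B cells, T cells and leukocytes in general moved with *Rasal3*. The summed FPKM of 4 B cell markers (*Cd79a*, *Cd79b*, *Ms4a1* and *Cd22*) was 0.581 to 1.10 in WT mice, 1.27 in *HrasG12V* mouse 2276, and 63.8 and 50.3 in *HrasG12V* mice 2278 and 2279. The B cell gene *Ms4a1* was listed at 0 in mouse 2276. The sum of 5 T cell markers (*Cd3e*, *Cd3d*, *Cd3g*, *Cd247* and *Lck*) was 0.996 to 1.36 in WT mice and 1.42, 24.9 and 33.9 in mice 2276, 2278 and 2279. The sum of 3 general leukocyte markers (*Ptprc*, *Coro1a* and *Laptm5*) was 6.79 to 9.20 in WT mice and 7.33, 78.2 and 78.5 in those mice. All of these markers were above every WT mouse in mice 2278 and 2279, as were 1 of the 4 B cell, 3 of the 5 T cell and 1 of the 3 leukocyte markers in mouse 2276. Below every WT mouse in mouse 2276 were the other 2 leukocyte markers (*Ptprc* and *Laptm5*) and 2 B cell markers (*Ms4a1* and *Cd22*). Like *Rasal3*, these sums were high in mice 2278 and 2279 and near the WT range in mouse 2276. *Rasal3* is known from blood cells, lymphocytes among them, and the part of these cells in its level was not tested.

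*Rasa3* was raised in mouse 2276 as well, in which B cell, T cell and leukocyte marker sums were 1.27, 1.42 and 7.33 FPKM against highest WT sums of 1.10, 1.36 and 9.20. The sum of 5 neutrophil markers (*S100a8*, *S100a9*, *Ngp*, *Ltf* and *Camp*, with *Ltf* listed at 0 in mice 2277 and 2276 and *Camp* in mouse 2281) was 0.716 to 3.57 FPKM in WT and 19.7, 129.5 and 50.8 FPKM in mice 2276, 2278 and 2279, above WT in all 3. The sum of 4 platelet markers (*Pf4*, *Itga2b*, *Gp9* and *Ppbp*) was 9.48 to 11.4 FPKM in WT and 18.6, 20.4 and 9.97 FPKM in those mice, the last within the WT range, and *Gp9* was listed at 0 in WT mouse 2281. The sum of 5 macrophage markers (*Adgre1*, *Cd68*, *Csf1r*, *C1qa* and *C1qb*) was 37.2 to 42.4 FPKM in WT and 54.2, 70.6 and 42.7 FPKM in *HrasG12V* mice. Endothelium, where *Rasa3* is also known to act, had a marker sum (*Pecam1*, *Cdh5*, *Kdr*, *Tek* and *Emcn*) of 138.9 to 170.8 FPKM in WT and of 123.5 to 124.5 FPKM in *HrasG12V* mice, lower in all 3. The sum of 3 adipocyte markers (*Adipoq*, *Plin1* and *Cidec*) was 4.79 to 25.3 FPKM in WT and 14.0, 71.4 and 58.7 FPKM in mice 2276, 2278 and 2279. All 3 markers were above every WT mouse in mice 2278 and 2279 and within the WT range in mouse 2276, the same split as that of *Rasal3*. The lymphocyte marker sums were high in the same mice, but in mouse 2276 they lay slightly above the WT range. The sum of 3 fibroblast markers (*Pdgfra*, *Col1a1* and *Dcn*) was 1004 to 2410 FPKM in WT and 456, 1550 and 609 FPKM in those mice, with 3 markers below every WT mouse in mouse 2276 and 2 in mouse 2279, and 2 above every WT mouse in mouse 2278. In mice 2276, 2278 and 2279, respectively, 4, 5 and 5 of the 5 neutrophil, 2, 4 and 3 of the 4 platelet and 2, 5 and 2 of the 5 macrophage markers were above every WT mouse, and 4, 3 and 3 of the 5 endothelial markers were below every WT mouse. Against these directions, *Emcn* was above every WT mouse in mouse 2276 (28.9 FPKM, highest WT 19.6), *Adgre1* was below every WT mouse in mice 2276 and 2279, and *Pf4*, which makes up most of the platelet sum, was below every WT mouse in mouse 2279 (6.86 FPKM). The part of these cell types in the level of *Rasa3*, and that of adipocytes in the level of *Rasal3*, was not tested.

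**Figure D3:**
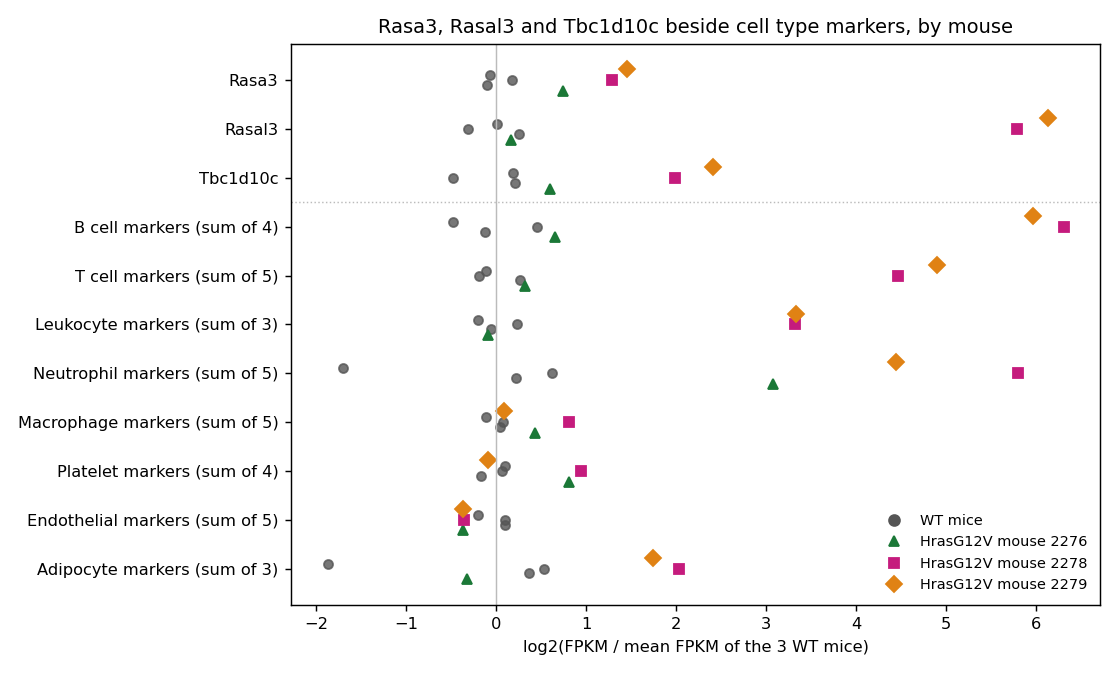
FPKM of *Rasa3*, *Rasal3* and the other GAP-domain gene *Tbc1d10c*, and summed FPKM of cell type markers, in each mouse on a log2 axis relative to the WT mean. Lymphocyte and leukocyte markers and *Rasal3* are high in mice 2278 and 2279 and near WT in mouse 2276, whereas *Rasa3* is raised in all 3 *HrasG12V* mice.

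The genes whose pattern over the 6 mice lay nearest to that of *Rasa3* were sought by the root mean square difference of centred log2(FPKM + 0.1) values, among 12177 tested genes with a mean of at least 1 FPKM. They were *Apoe* (0.09), the apolipoprotein E gene, *Plaur* (0.09), the urokinase receptor, *Plvap* (0.13), a protein of endothelial fenestrae, *Mob3a* (0.14) and *Col23a1* (0.14), a collagen, where the median gene had a difference of 0.73. *Apoe* was at 58.4 to 71.0 FPKM in WT and 120.5 to 177 FPKM in *HrasG12V* mice. *Plvap* was at 6.40 to 9.21 FPKM in WT and 11.2 to 22.5 FPKM in *HrasG12V* mice. These 5 were picked for likeness to *Rasa3*, so their difference between genotypes follows from the search and nothing is read from it. No other RasGAP was among them, which with 12177 genes compared says nothing about the RasGAPs.

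Other genes with a GAP or GAP-related domain gave mixed values. Of 6 such genes 4 could be tested, 1 was higher with an unadjusted limma p below 0.05 and 0 were lower, where 5.18% and 4.99% of all genes were. The lists here and in what follows are short and nothing is read from such counts. That 1 was *Tbc1d10c*, a calcineurin inhibitor with Ras GAP activity, at 2.60, 1.61 and 2.56 FPKM in the WT mice (2277, 2280 and 2281) and 3.41, 8.95 and 12.0 FPKM in *HrasG12V* mice 2276, 2278 and 2279. It was higher in all 3 *HrasG12V* mice, and far more so in mice 2278 and 2279, where lymphocyte markers were high. Its log2 fold change was 1.65 (SE 0.47). The study named *Tbc1d10c* on these libraries too, so it is no independent case. *Iqgap1*, a scaffold whose GAP-related domain lacks GAP activity, was at 8.82 to 11.0 FPKM in WT and 6.50 to 15.7 FPKM in *HrasG12V* mice, and its relative *Iqgap2* had a log2 fold change of -0.39 (SE 0.46). *Gapvd1*, an endosomal protein, had a log2 fold change of -0.24 (SE 0.22). *Rasal1*, of the GAP1 family, was too low to test, at no more than 0.0335 FPKM in WT mice and at 0 (as listed), 0.644 and 1.0 FPKM in mice 2276, 2278 and 2279, with the higher values in the mice in which *Rasal3* was high. *Iqgap3* was at 0.156 to 0.229 FPKM in WT and 0.174 to 0.373 FPKM in *HrasG12V* mice.

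Some genes lie within *Nf1*. Of those in the annotation, *Omg*, *Evi2a* and *Evi2b* were taken, which lie within *Nf1* on chromosome 11 (79339693 to 79581612, plus strand), on the opposite strand. The library kit kept the strand, but whether counting used it is not given in the sources used here, and without it reads of host and nested genes could not be told apart. *Evi2b*, a leukocyte gene, was at 0.106 to 0.410 FPKM in WT and 0.197, 3.86 and 3.36 FPKM in *HrasG12V* mice 2276, 2278 and 2279. *Evi2a* was at 1.17 to 1.71 FPKM in WT and 2.06, 3.99 and 2.57 FPKM in *HrasG12V* mice (log2 fold change 0.86, SE 0.29), with the only unadjusted limma p below 0.05 of the 2 tested (5.18% of all genes were higher at that limit), and that of *Evi2b*, which met the limit for the fit through mice 2278 and 2279 alone, was 2.26 (SE 1.04). *Omg*, an oligodendrocyte glycoprotein, was at 0 (as listed) to 0.0415 FPKM. *Ccnh* overlaps the end of *Rasa1*, *Gm13446* overlaps *Dab2ip* and *2810025M15Rik* overlaps *Rasal2*, all on the opposite strand, and *Mir7035* lies within *Rasa4* on the same strand. *Rasa3* had no overlapping gene in the annotation.

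The proteins that RasGAPs act on and with were described from lists for each role. Of 7 Ras and Rap GTPases, 0 were higher and 0 lower with an unadjusted limma p below 0.05 (5.18% and 4.99% of all genes), and their median log2 fold change was 0.09. *Rras*, an R-Ras sensitive to RasGAPs, was highest at 0.70 (SE 0.31), followed by *Rap1b* at 0.11 (SE 0.30). *Rras* was at 21.4 to 26.0 FPKM in WT and at 59.8, 32.5 and 27.4 FPKM in *HrasG12V* mice 2276, 2278 and 2279. Its largest value was thus in mouse 2276, the library with the length trend. *Hras* (-0.44, SE 0.47) and *Mras* (-0.30, SE 0.19) were lowest. Of 11 partners of RasGAPs 1 was higher and 0 lower, against the same shares of all genes, with a median of -0.06. It was *Dok2*, an adaptor of blood cells that binds p120 RasGAP, at 1.05, 1.19 and 1.23 FPKM in WT and 1.40, 3.20 and 2.82 FPKM in *HrasG12V* mice 2276, 2278 and 2279 (log2 fold change 0.96, SE 0.33), with the larger values again in mice 2278 and 2279. *Spred1*, which brings neurofibromin to the membrane, had a log2 fold change of 0.25 (SE 0.27), *Ephb4*, a receptor that signals through p120 RasGAP, one of -0.34 (SE 0.16), and *Spred3* one of -0.40 (SE 0.31).

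RasGEFs load Ras with GTP and so oppose the RasGAPs. Of 8 in the list 7 were tested, 0 were higher and 2 lower with an unadjusted limma p below 0.05 (5.18% and 4.99% of all genes), with a median log2 fold change of -0.36. *Sos2* was at 16.8 to 20.4 FPKM in WT and 9.11 to 15.0 FPKM in *HrasG12V* mice (log2 fold change -0.65, SE 0.22), and *Rasgrf2* at 2.60 to 2.77 and 1.17 to 2.12 FPKM (-0.74, SE 0.24). The study had named these 2 genes on the same libraries. *Rasgrp1*, the RasGEF of T cells, followed the pattern of *Rasal3*, at 0.0835, 0.104 and 0.0516 FPKM in the WT mice (2277, 2280 and 2281) and at 0.0631, 2.50 and 2.89 FPKM in *HrasG12V* mice 2276, 2278 and 2279. It met the limit for the fit through mice 2278 and 2279 alone. Its log2 fold change was 2.60 (SE 1.17), and the next highest was *Rasgrp4* at 0.27 (SE 0.29).

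RapGAPs switch off Rap1, the second substrate of *Rasa3*. Of 7 tested 1 was higher and 2 lower with an unadjusted limma p below 0.05 (5.18% and 4.99% of all genes), and the median log2 fold change was -0.19. *Sipa1*, abundant in lymphoid cells, was at 7.21 to 7.64 FPKM in WT and 9.75, 11.0 and 11.0 FPKM in *HrasG12V* mice 2276, 2278 and 2279, higher in all 3 (log2 fold change 0.52, SE 0.14). *Rap1gap* was at 3.80, 2.57 and 3.63 FPKM in the WT mice (2277, 2280 and 2281) and at 1.66, 1.90 and 1.53 FPKM in *HrasG12V* mice, lower in all 3 (log2 fold change -0.92, SE 0.21). *Sipa1l2* was at 3.93 to 4.47 FPKM in WT and 2.96 to 3.44 FPKM in *HrasG12V* mice (log2 fold change -0.38, SE 0.14), and *Garnl3* was the next highest after *Sipa1*, at 0.20 (SE 0.37). The numbers past the unadjusted limit over all these lists, 4 higher and 4 lower, hung on single mice. They were 10 and 7 without mouse 2276 and 1 and 1 without mouse 2278. Without WT mouse 2277 the number lower was 1, without WT mouse 2280 they were 2 and 2, and without WT mouse 2281 they were 2 and 1. No gene of these lists had a limma adjusted p below 0.05.

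**Figure D4:**
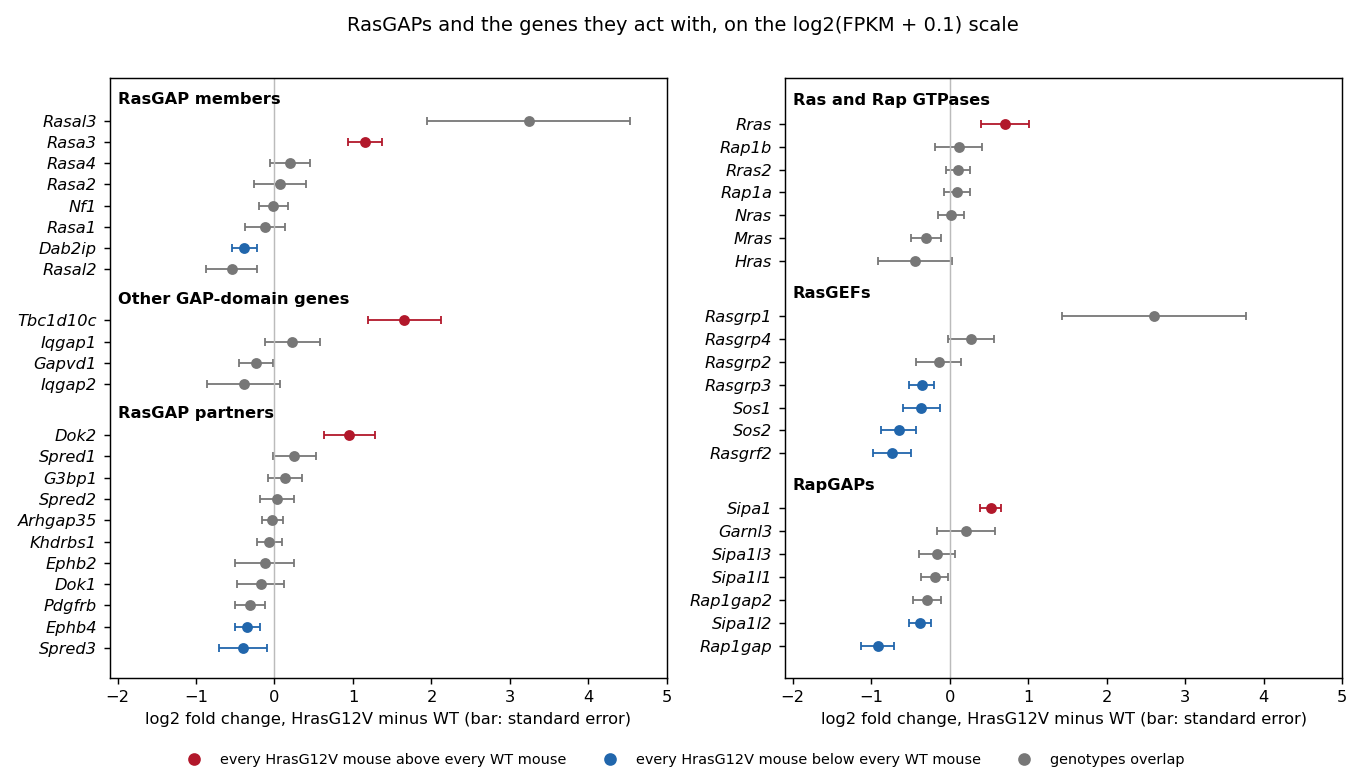
Log2 fold changes (*HrasG12V* minus WT, log2(FPKM + 0.1) scale, bars for the standard error, n = 3 mice per genotype) of the RasGAPs and of the tested genes of related lists, coloured by whether the genotypes overlap. *Rasa3* at 1.15, *Tbc1d10c* at 1.65, *Dok2* at 0.96, *Rras* at 0.70 and *Sipa1* at 0.52 lie above 0 without overlap. *Dab2ip*, *Spred3*, *Ephb4*, *Sos1*, *Sos2*, *Rasgrf2*, *Rasgrp3*, *Rap1gap* and *Sipa1l2* lie below 0 without overlap. Of all genes tested, 8.11% were higher and 10.4% lower without overlap. *Rasal3* at 3.24 has a wide error (1.30) and overlapping genotypes.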

How the data were processed

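The authors mapped the reads with TopHat and computed FPKM per gene with Cufflinks and Cuffnorm, and the deposited values are those FPKM, 1 per gene symbol and library. The submitters' processing notes name bcl2fastq, TopHat, Cufflinks and Cuffnorm and the builds GRCm38 and mm10. Their versions and the annotation were not given in the sources used here. Low values were searched for steps of whole reads. The fullest interval held 0.725% to 4.46% of the values, so read numbers could not be recovered, and count models were left out. The study gives an approximate number of reads for all samples alike, and the depth of each library is not known from the files.

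A pseudocount of 0.1 was added, log2 values were taken, and 13359 genes with a mean of at least 0.5 FPKM were compared between genotypes in limma 3.58.1 (R 4.3.3), with an abundance trend in its empirical Bayes step, no covariate and Benjamini-Hochberg adjustment over all genes, after a check on simulated data. By its methods, the study's own comparison used an unpaired test on FPKM with a false discovery rate correction and a 1.5-fold limit. Positions and transcript lengths came from GENCODE vM21 (GRCm38), with a length for 99.26% of the genes tested, and promoters from RefSeq (GRCm38.p6). Python 3.11.15 was used for tables (pandas 2.3.3, numpy 2.4.6) and for plots (matplotlib 3.10.9).

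The members, the gene lists and the tests were chosen with earlier results of these data known. Some genes of the lists, and 1 marker list, are not reported here and were left out of counts and sums. Named were all 8 members, all other GAP-domain genes reported and 3 genes nested in *Nf1* (*Omg*, *Evi2a* and *Evi2b*), in each other list the 2 highest, the 2 lowest and every gene past the unadjusted limit, markers that bear on a member, and the 5 genes nearest to *Rasa3*. *Acta1*, *Myh4*, *Ckm*, *Mylpf* and *Tnnt3* were the muscle fibre markers. Alternatives were pseudocounts of 1 and 0.01, no filter, a mean of at least 1 FPKM, quantile normalization, rescaling to the same total, median centring, no moderation, array weights, leaving out each mouse or both mice 2278 and 2279, and, chosen after seeing the data, removal of the length trend of each library.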

Additional observations from a re-analysis of the deposited data

How the results depend on the processing

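The *Rasa3* log2 fold change, on which *Rasa3* was chosen, was 0.73 (without mice 2278 and 2279) to 1.36 (without mouse 2276) over the 17 alternatives run. With the same total FPKM it was 1.14, with a standard error of 0.45 against 0.22 in the main fit. The difference of *Rasa3* from the median of the other RasGAPs was 0.97 to 1.22 over 9 alternatives. *Rasa1* (-0.12) turned to 0.13 with array weights and was -0.28 to 0.16 when each mouse was left out (0.16 without mouse 2276). *Rasa2* (0.07) turned to -0.04 without mouse 2278, -0.19 without mouse 2279 and -0.67 without both, and reached 0.44 without mouse 2276. *Rasa4* (0.20) turned to -0.057 with array weights and was -0.063 to 0.41 when each mouse was left out (-0.063 without mouse 2276). *Nf1* (-0.01) turned to 0.13 with array weights, 0.04 without WT mouse 2277, 0.15 without mouse 2276 and 0.23 with the length trend removed. The number of RasGAPs higher (2) was 1 with a mean of at least 1 FPKM, 1 with the same total FPKM and 1 without moderation, and 1 to 3 when each mouse was left out, the call of *Rasal3* being lost without any 1 mouse other than 2276. The number lower (1) was 0 with the same total FPKM, 0 with median centring, 0 with the length trend removed, 3 without mice 2278 and 2279, and 0 to 1 when each mouse was left out, the call of *Dab2ip* being kept only without mouse 2276. Genes of the related lists higher (4) were 7 with quantile normalization, 1 with the same total, 2 without moderation, 9 with array weights and 1 to 10 when each mouse was left out. Those lower (4) were 1 with the same total, 15 without mice 2278 and 2279 and 1 to 7 when each mouse was left out. Of all genes, 1358 had an unadjusted limma p below 0.05, and 712 with the same total, 3042 with array weights, 6312 without mice 2278 and 2279 and 606 to 3979 (without WT mouse 2281 and without mouse 2276) when each mouse was left out. After limma adjustment 8 became 5 with a pseudocount of 1, 1 without moderation, 572 with array weights, 4200 without mice 2278 and 2279 and 7 to 1291 when each mouse was left out. The causes were not tested. No paired analysis was run, because the labels do not say which mice share a litter. With both mice 2278 and 2279 left out, mouse 2276 is a lone sample assumed to vary like the WT mice. Depth limits of single values are unknown.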
